A study of Mus musculus with 6 samples.

Results

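Cycling cells, chosen by the detection of 9 cell-cycle genes, were picked out of single-cell RNA profiles of cultured mouse retinal cells, and their lineages were traced. A kept cell had at least 500 detected genes and at most 10% of its unique molecular identifiers (UMIs, each standing for 1 captured RNA molecule) from mitochondrial genes. A cell was called cycling when at least 4 of those genes (Cenpf, Ube2c, Cenpa, Top2a, Prc1, Mki67, Cenpe, Hmmr and Birc5) had 1 or more UMIs. Of 23258 kept cells, 183 met this rule, a share of 0.787% (exact 95% interval 0.677% to 0.909%). These intervals, like all others here, cover counting error only.

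The study asked how let-7, miR-25 and miR-124 act on the gene expression and fate of Müller glia, the main glial cell of the retina. Retinas were dissociated with papain and grown in Neurobasal medium with 10% fetal bovine serum, N2 supplement, L-glutamine and epidermal growth factor (EGF), and were transfected with Lipofectamine 3000 at 500 nM of each RNA. There were 6 libraries, 1 per treatment. They were labelled control (a control mimic and a control antagomiR), miR-25 mimic, let-7 antagomiR, miR-124 mimic, miR-25 mimic plus antagomiR (the double transfection), and all 3 agents (the triple transfection). An antagomiR blocks a microRNA and a mimic supplies one. With 1 library per treatment there was no replicate, so no treatment effect was tested. The labels name no strain, age or number of animals.

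A dividing cell copies its DNA in S phase and separates the copies in mitosis, after a gap called G2. D-type cyclins with Cdk4 or Cdk6 start the process by inactivating the retinoblastoma protein, which frees E2F factors to switch on replication genes. Genes of G2 and mitosis are switched on later, and CDK inhibitors such as p21 (Cdkn1a) and the Ink4 proteins restrain the kinases. In mammals, Müller glia seldom divide in the intact retina, whereas microglia, the resident immune cells, renew themselves by division.

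The 9 marker genes encode proteins of G2 and mitosis. Promoters of such genes are known for a TTTGAA element (the cell cycle genes homology region) and for CCAAT boxes, whereas replication genes are known for E2F sites such as TTTGGCGC and TTTCCCGC. RefSeq promoters (GRCm38.p6, from 250 bases before to 50 after a gene's start) were searched for these letters on both strands. The windows below show the 150 bases just before the start, on the gene's own strand and from 5′ to 3′, with motif letters in capitals (TTCAAA and ATTGG are the same motifs read from the other strand). Ube2c (the ubiquitin-conjugating enzyme of mitotic exit), Top2a (topoisomerase II alpha) and Mki67 (the Ki-67 antigen) are markers. Cdk1 is the mitotic kinase, and Mcm6, a subunit of the replicative helicase, is shown as the S-phase contrast. The windows lie at chr2:164769779-164769928 (plus strand), chr11:99024190-99024339 (minus strand), chr7:135716380-135716529 (minus strand), chr10:69352913-69353062 (minus strand) and chr1:128359706-128359855 (minus strand).
Ube2c: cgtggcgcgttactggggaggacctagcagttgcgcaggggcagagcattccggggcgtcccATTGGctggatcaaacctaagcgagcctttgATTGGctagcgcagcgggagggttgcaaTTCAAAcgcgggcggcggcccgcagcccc
Top2a: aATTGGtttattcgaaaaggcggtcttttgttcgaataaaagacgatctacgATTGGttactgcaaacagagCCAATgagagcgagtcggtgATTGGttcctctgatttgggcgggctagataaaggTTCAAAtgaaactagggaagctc
Mki67: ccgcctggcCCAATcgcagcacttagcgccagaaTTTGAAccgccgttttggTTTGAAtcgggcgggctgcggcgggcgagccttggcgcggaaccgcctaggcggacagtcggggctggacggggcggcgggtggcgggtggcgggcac
Cdk1: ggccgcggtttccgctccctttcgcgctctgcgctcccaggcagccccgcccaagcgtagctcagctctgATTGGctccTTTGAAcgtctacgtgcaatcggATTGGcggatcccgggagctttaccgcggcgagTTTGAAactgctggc
Mcm6: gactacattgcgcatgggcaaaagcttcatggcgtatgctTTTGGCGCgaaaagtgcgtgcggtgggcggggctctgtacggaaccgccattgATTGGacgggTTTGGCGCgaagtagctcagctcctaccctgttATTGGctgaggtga

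TTTGAA was found in 7 of the 9 marker promoters (77.8%) and CCAAT in 8 (88.9%), and neither E2F site was found in any of them. Over all 27025 genes with a promoter in the table, 20.2% held TTTGAA, 41.1% CCAAT, 0.585% TTTGGCGC and 1.24% TTTCCCGC. In the list of replication licensing and fork genes, TTTGAA was in 3 of 27 matched genes (11.1%), and TTTGGCGC and TTTCCCGC were each in 5 (18.5%). CCAAT was in 18 of the 27 (66.7%), above the share of all genes as in the markers. Of the mitotic kinases and cyclins, 8 of 15 matched genes (53.3%) held TTTGAA. These matches describe letters in a window and do not show that a factor bound there.

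Before the cells were compared, the libraries were checked against their labels through seed sites in 3′ untranslated regions. The seed is bases 2 to 8 of a microRNA, in capitals here, and its complement is the site searched for.
mmu-miR-25-3p: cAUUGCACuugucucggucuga
mmu-let-7a-5p: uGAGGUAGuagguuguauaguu

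Over all kept cells, genes with a miR-25 site lay lower against control than genes without, after removing trends with length, GC content and level, by -0.12 (log2) in the miR-25 library and by -0.12 in the double transfection, but by 0.01 in the labelled triple transfection. Genes with a let-7 site lay 0.04 higher in both the let-7 antagomiR library and the double transfection, 0.05 higher in the labelled miR-124 library, and 0.01 higher in the labelled triple transfection. Within the microglia-like and mesenchymal-like classes defined below, the let-7 shift of the antagomiR library was only 0.008 and 0.0008. That of the labelled miR-124 library was 0.02 in each. The miR-25 shift was -0.05 and -0.03 in the miR-25 library, and 0.002 and -0.009 in the labelled triple transfection. Sites of miR-124 were not searched, so the check leaves that agent out. The labelled triple transfection thus did not show the miR-25 site shift seen in the other libraries given that mimic. The labelled miR-124 library showed, over all cells, a let-7 shift its label does not name. Both are called by their labels only. Total UMIs ranged from 11804176 to 23124374 per library. The file of the double transfection used here held 5094879 of the 8637523 entries its header lists, so 3014 of its 5141 barcodes were used. Any 2 libraries shared 9 to 33 barcodes, none of them a cycling cell. Cycling cells were deeper (library medians of 4611 to 11241 UMIs) than other cells (3505 to 5885.5), and a lower percentage of their UMIs was mitochondrial (2.75% to 3.44% against 4.19% to 5.15%).

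Few cells lay near the threshold: 21794 kept cells had no marker, 1188 had 1, 69 had 2 and 24 had 3. Just inside the threshold, 22 cells had 4 markers, while 48 cells had all 9. Among cycling cells, Mki67 was detected in 89.6%, Birc5 (survivin) in 85.8%, Top2a in 82.0% and Hmmr (a spindle-associated receptor) in 67.2%. Among other cells, Mki67 was detected in 4.78% of microglia-like cells and in 0.269% of mesenchymal-like cells. These values chose the cells and are given as a description.

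**Figure D1:**
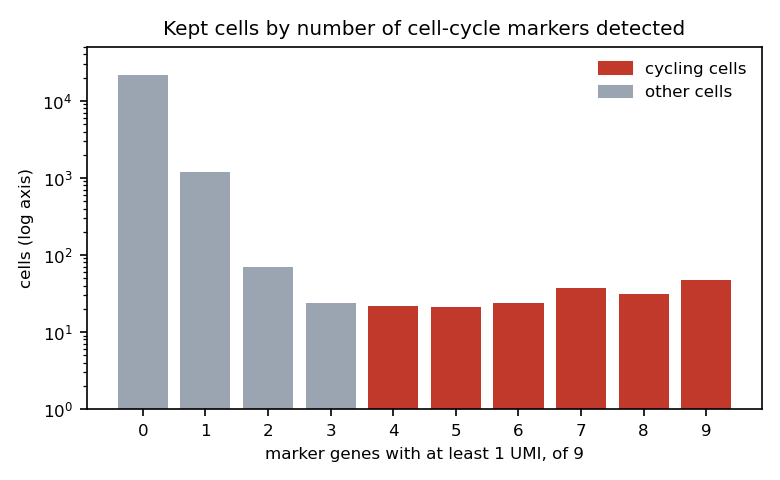
Number of kept cells (y axis, log scale) by the number of the 9 cell-cycle markers with at least 1 UMI (x axis), all 6 libraries together. Red bars are the 183 cycling cells and grey bars the others; 24 cells had 3 markers and 22 had 4.

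The share of cycling cells was 0.796% in control (36 of 4521 cells), 0.959% under let-7 antagomiR alone (30 of 3128), 0.581% under miR-25 alone (30 of 5168), 0.834% in the labelled miR-124 library (30 of 3598), 0.870% in the double transfection (24 of 2759) and 0.808% in the labelled triple transfection (33 of 4084). The lowest and highest of these, miR-25 (0.392% to 0.828%) and let-7 antagomiR (0.648% to 1.37%), had overlapping intervals. When each cell was thinned to 2000 UMIs, 107 of 21810 cells met the rule (0.491%), and the libraries ranged from 0.325% (labelled triple) to 0.734% (labelled miR-124). With 1 library per treatment these values do not test treatment.

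Cell classes were built without the cell-cycle genes, so that dividing cells would fall in with their lineage. Microglia-like cells, named from complement genes C1qa, C1qb and C1qc, Csf1r (the receptor of colony-stimulating factor 1) and 8 further markers, made up 2.45% of kept cells but 48.6% of the cycling cells (89 of 183; 41.2% to 56.1%). Mesenchymal-like cells (fibrillar collagens, Pdgfra, Dcn) held 55 cycling cells (30.1%) and pericyte-like cells 9 (4.92%). Müller-like cells held 13 (7.10%), and another 13 lay in a cluster led by Npvf and AI593442. That cluster was left unnamed, since too few markers of any class stood clearly above their level in the median cluster. Astrocyte-like cells held 3 cycling cells, and neuron- or progenitor-like cells held 1. At clustering resolutions of 0.3 and 1.0 the AI593442-led cluster joined the Müller-like cells, which then held 26 of the 183 (14.2%). All 6 samples are labelled Müller glia, whose markers defined neither of the 2 classes with most cycling cells.

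Of 570 microglia-like cells, 89 were cycling, or 15.6% (12.7% to 18.9%). By library the share was 13.3% in control (16 of 120), 17.5% under let-7 antagomiR alone (18 of 103), 14.1% under miR-25 alone (10 of 71), 11.5% in the labelled miR-124 library (12 of 104), 23.3% in the double transfection (17 of 73) and 16.2% in the labelled triple transfection (16 of 99). The double transfection was highest, but its interval (14.2% to 34.6%) overlapped that of control (7.82% to 20.7%). Mesenchymal-like cells cycled at 0.700% (55 of 7857), with library shares of 0.473% to 1.04%.

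The microglia-like share was higher than the mesenchymal-like share in 6 of 6 libraries, by 15.3 ± 4.23 percentage points (mean ± SD over libraries), and the exact two-sided permutation test over libraries gave p = 0.03125, the smallest it can give with 6. Against the Müller-like and AI593442-led cells together the difference was 15.8 ± 4.24 points, also in 6 of 6 libraries, with the same exact p = 0.03125. The Benjamini-Hochberg adjusted value over these 2 comparisons was 0.03125 for each. The libraries differ in treatment, so this spread includes any treatment effect. No test of these shares was planned, and they count cells that the markers themselves chose. The p-values thus describe only how steady the order of the classes was over these 6 libraries, and are not independent support. After thinning to 2000 UMIs the differences were 10.2 ± 3.41 and 10.3 ± 3.33 points.

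**Figure D2:**
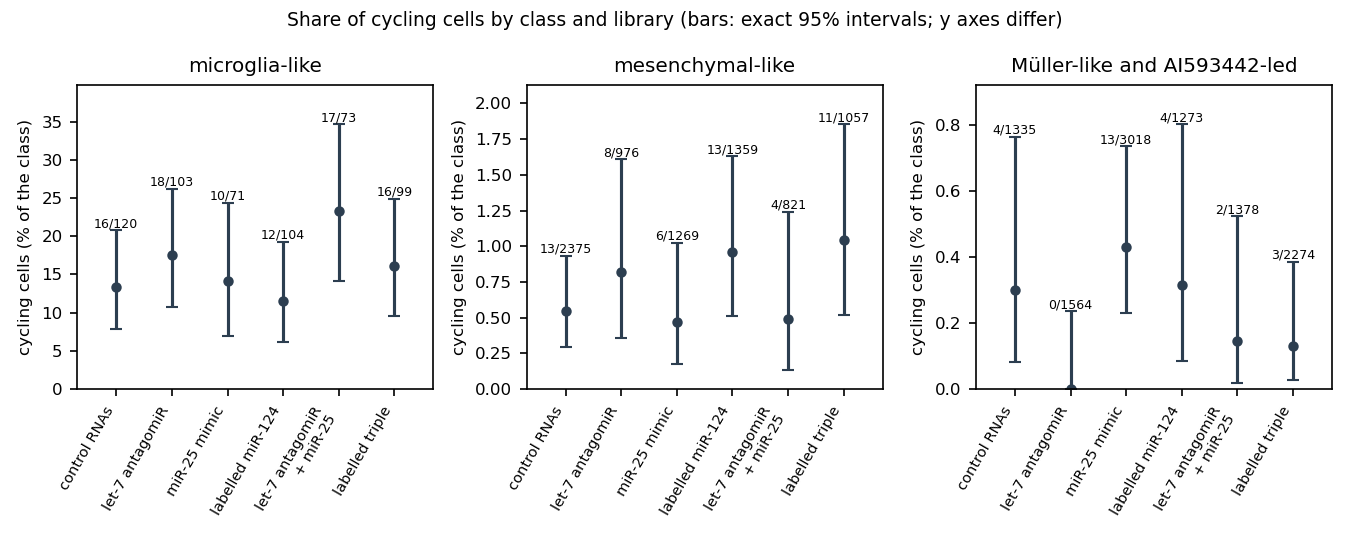
Cycling cells as a percentage of each class (y axes, which differ between panels) in each library (x axis). Points are shares, bars exact 95% intervals, and the numbers give cycling cells over all cells of the class; microglia-like shares lie between 11.5% and 23.3%, and those of the other 2 panels at or under 1.04%.

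Müller-like and AI593442-led cells were seldom cycling: 26 of 10842, or 0.240% (0.157% to 0.351%). The miR-25 library held 13 of these 26 cells (13 of 3018; 0.431%, 0.229% to 0.736%), against 4 of 1335 in control (0.30%, 0.0817% to 0.765%). None of 1564 such cells was cycling with let-7 antagomiR, which allows a share of up to 0.192%. Its exact interval ended at 0.236%, just above the lower bound of the miR-25 library, so the intervals of these 3 libraries overlapped. A Müller-like cluster led by Rlbp1 (retinaldehyde-binding protein) and Car14 (carbonic anhydrase 14), genes of mature Müller glia, had 0 of its 2471 cells cycling. Most of that cluster came from the labelled triple transfection (1740 cells) and labelled miR-124 (696 cells) libraries.

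Cycling microglia-like cells had a median of 11 of the 12 microglia markers (at least 7 in every cell), 0 of the 12 mesenchymal markers and 3 of the 19 Müller markers (up to 15). Cycling mesenchymal-like cells had a median of 6 mesenchymal (0 to 9), 0 microglia, 4 Müller and 3 pericyte markers. Other mesenchymal-like cells had medians of 5, 0, 4 and 2. Cycling Müller-like cells had a median of 10 of the Müller markers, and 0 microglia and 0 mesenchymal markers. Scrublet, a doublet caller, marked 2 cycling cells as doublets. It marked under 0.5% of cells in 4 of 6 libraries and so did not work there. The median doublet score of cycling cells was above that of other cells in 6 of 6 libraries (0.0530 to 0.0819 against 0.0345 to 0.0475). Cycling cells were also deeper. Without the 4% of cells with the highest doublet score in each library, microglia-like cells made up 47.7% of the cycling cells.

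Replication genes gave a second view of the cycle that the markers, all of G2 and mitosis, did not use. Of cycling cells thinned to 2000 UMIs, 97 of 174 (55.7%) had at least 3 UMIs from the replication licensing and fork genes, against 2.79% of cells with at most 1 marker. The share was 52.9% in cycling microglia-like cells (46 of 87) and 64.2% in mesenchymal-like cells (34 of 53), with overlapping intervals (41.9% to 63.7% and 49.8% to 76.9%). Some cells outside the rule also carried many S-phase genes, here those of the replication and nucleotide synthesis lists together. Among cells with at most 1 marker, 16 of 426 microglia-like cells (3.76%, 2.16% to 6.03%) had at least 5 such genes, against 31 of 7383 mesenchymal-like (0.420%, 0.286% to 0.595%) and 12 of 8015 Müller-like cells (0.150%, 0.0774% to 0.261%). These 3 classes thus kept their order with genes the rule did not use.

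Cycling cells were then compared with the other cells of their class, using UMIs summed over cells and given as CPM (counts per 1000000 UMIs). A gene entered with at least 20 CPM in either sum, and ratios are log2 of (CPM + 5). A gene almost absent from other cells thus entered only through cycling cells, so for it the filter fixed a higher value. The counts of higher genes among those measured, given below for each list, carry this limit and do not show breadth. A gene was called when it was at least 1.5-fold higher, or lower, in every library with 5 or more cycling cells of the class, which was 6 libraries for microglia-like and 5 for mesenchymal-like cells (the double transfection had 4 such cells). The rule chose cells by genes of the same program, so these values describe and test nothing. Of 5734 genes in microglia-like cells, 196 (3.42%) were higher in all 6 libraries and 21 (0.366%) lower. Of 6672 genes in mesenchymal-like cells, 310 (4.65%) were higher in all 5 libraries and 102 (1.53%) lower. The counts of lower genes depended on single libraries: leaving out any 1 gave 31 (without miR-25) to 45 (without let-7 antagomiR) in microglia-like cells and 164 (without let-7 antagomiR) to 206 (without miR-25) in mesenchymal-like cells. In the summed counts, 359 genes (6.26%) were at least 2-fold higher and 90 (1.57%) at least 2-fold lower in cycling microglia-like cells, and 517 (7.75%) and 279 (4.18%) in mesenchymal-like cells. Median-of-ratios scaling shifted mesenchymal-like ratios down by 0.13 (median over libraries) and gave 259 higher and 207 lower genes, so that 55.6% of calls were higher in place of 75.2%.

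Many of the genes called higher in cycling cells were shared by the lineages, in part by design. The same 9 markers chose both groups, and the level filter fixed a higher value for genes almost absent from other cells. Among the 4862 genes measured in both classes, 151 were called higher in both, which was 80.7% of the microglia-like calls (187) and 55.5% of the mesenchymal-like calls (272). Of the lower genes 1 was shared, out of 15 and 56: Sqstm1, the autophagy receptor p62, named after its values were seen (101 against 328 CPM and 65.2 against 127 CPM). Of the 112 shared higher genes with a promoter in the table, 56 held TTTGAA (interval of the share 40.4% to 59.6%), against 14.4% of genes measured in either class. All 9 markers, 7 of them with TTTGAA, are in this set, so the share does not stand apart from the rule.

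Mitotic genes were high in both lineages. All 9 markers were at least 2-fold higher, which the rule fixed, and the level filter limits the other counts as stated above. Of the mitotic kinases and cyclins, 17 of 18 measured genes were at least 2-fold higher in cycling microglia-like cells and 18 of 18 in mesenchymal-like cells. Ccnb2 (cyclin B2) was at 148 against 4.18 CPM in microglia-like and 157 against 0.700 CPM in mesenchymal-like cells. Ccna2 (cyclin A2) was at 125 against 2.28 CPM and 146 against 0.434 CPM. Ccnb1 (cyclin B1) was at 86.3 against 1.52 CPM and 104 against 0.193 CPM. The kinase Pbk was at 72.8 CPM in cycling microglia-like cells and had no UMI in the others.

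Structural genes of mitosis followed. The 11 measured condensation genes were all 2-fold higher or more in each class, among them Nusap1 (a spindle protein; 121 against 1.14 CPM in microglia-like, 150 against 0.507 in mesenchymal-like cells), Sgol2a (shugoshin 2), Esco2 (a cohesin acetyltransferase) and Smc2 (a condensin subunit). Kinetochore genes were 12 of 12 and 15 of 15, led by the Ndc80 complex subunits Spc24 and Spc25 and by Casc5 and Cenpm. Spc25 was at 99.7 against 3.42 CPM in microglia-like and 215 against 14.98 CPM in mesenchymal-like cells. Spindle genes were 19 of 19 and 19 of 20, with Tpx2 (an Aurora A activator), Ckap2l, Fam64a and Aspm leading. Cytokinesis genes were 10 of 10 and 9 of 9, led by Cdca8 (borealin), Anln (anillin), Kif23 and Cep55. Of the anaphase and exit genes, 7 of 9 and 7 of 10 were at least 2-fold higher, including Cdc20, the activator of the anaphase-promoting complex (64.7 against 1.52 CPM and 152 against 1.54 CPM), Cdca3, Cdkn3 and Fbxo5.

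S-phase genes were higher too, with the same limit on counts from the level filter. Replication licensing and fork genes were at least 2-fold higher for 26 of 27 measured in microglia-like cells (median log2 ratio 1.504) and 29 of 29 in mesenchymal-like cells (2.39), where the medians of all genes were 0.07 and 0.00. Clspn (claspin, a checkpoint adaptor) was at 86.3 against 6.84 CPM and 189 against 1.71 CPM. Gmnn (geminin, the licensing inhibitor), Prim1 (primase) and Mcm10 were next. The replication genes were not at 0 in other microglia-like cells: Pcna, the sliding clamp, was at 17.1 CPM there against 5.12 CPM in other mesenchymal-like cells, while cycling cells had 40.4 and 47.8 CPM. Nucleotide synthesis genes were 6 of 7 and 7 of 7, with Rrm2 (ribonucleotide reductase) at 140 against 4.94 CPM and 274 against 4.87 CPM, followed by Tk1, Tyms and Rrm1. Chromatin genes were 18 of 18 in both, with the linker histone Hist1h1b at 624 against 7.98 CPM and 445 against 7.82 CPM, and Hmgb2, Uhrf1 and Asf1b behind it.

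**Figure D3:**
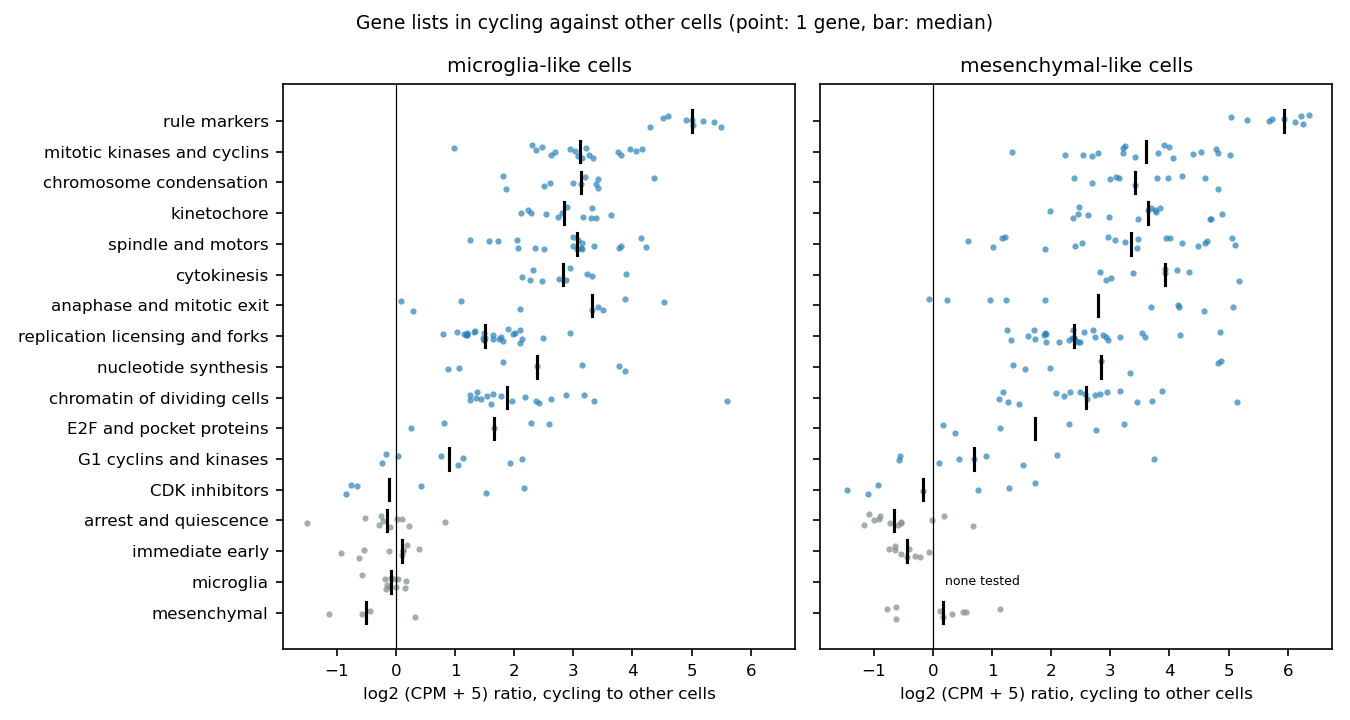
Log2 ratio of (CPM + 5) in cycling to other cells of the same class (x axis) for each measured gene (points) of each list (rows), with the list median as a bar. Medians for mitotic kinases and cyclins are 3.11 in microglia-like and 3.605 in mesenchymal-like cells; the microglia list in microglia-like cells lies at -0.08.

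Of the G1 cyclins and kinases, 4 of 8 and 3 of 9 were at least 2-fold higher. Ccne2 (cyclin E2) was higher in every library of both classes (25.6 against 3.04 CPM and 67.4 against 0.410 CPM), and Cdk4 was higher in every library of both (262 against 124.3 CPM and 446 against 236 CPM). Ccne1 was at 27.0 against 2.28 CPM and 30.4 against 3.26 CPM, and Cdk2 at 20.2 against 6.46 CPM and 32.6 against 8.11 CPM. The D cyclins were not higher throughout. Ccnd1 was at 154 against 174 CPM in microglia-like cells and 211 against 195 CPM in mesenchymal-like cells. Ccnd2 was at 84.9 against 101 CPM in microglia-like cells, and at 693 against 1031 CPM in mesenchymal-like cells, where it was lower in 5 of 5 libraries. Ccnd3 was also lower in 5 of 5 mesenchymal-like libraries (139 against 208 CPM), but in microglia-like cells it was at 49.9 against 27.4 CPM, higher in 4 of 6. Cdk6 was at 72.8 against 71.1 CPM and 69.5 against 49.9 CPM. Of the E2F group 3 of 5 and 4 of 6 measured genes were 2-fold higher. Among them were Foxm1 and E2f8 in microglia-like cells and E2f7 and Mybl2 in mesenchymal-like cells. In the class not named, each of these genes was below the level filter and outside the counts. Over both classes they were at 15.2 to 52.2 CPM in cycling cells and at most 2.66 CPM in others.

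Of the CDK inhibitors, 2 of 6 measured were at least 2-fold higher and none lower in microglia-like cells, and 2 of 7 were higher and 2 lower in mesenchymal-like cells. Cdkn1a is the p53-induced inhibitor p21. In cycling microglia-like cells it was at 831, 470, 641, 671, 823 and 873 CPM (control, let-7 antagomiR, miR-25, labelled miR-124, double, labelled triple), against 547, 373, 633, 464, 564 and 616 CPM in other cells of the class. Cycling cells were thus higher in 6 of 6 libraries, though barely so with miR-25, and the groups overlapped across libraries (summed counts 708 against 524 CPM, 1.351-fold, 1.22 to 1.495). With median-of-ratios scaling it was higher in 5 of 6. In mesenchymal-like cells it ran the other way, at 556, 624, 1250, 1186 and 814 CPM in cycling cells (without the double transfection, which had 4 such cells) against 1594, 1753, 1785, 1686 and 1778 CPM in the others. Every cycling value lay below every value of the others, and the summed ratio was 0.468 (0.421 to 0.518). That difference between classes was not tested.

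The Ink4 family split by member. Cdkn2a (p16 and p19Arf, whose reads cannot be told apart here) was at 154 against 297 CPM and Cdkn2b (p15) at 159 against 442 CPM in mesenchymal-like cells, each lower in 5 of 5 libraries. Cdkn2b was at 91.4, 181, 204, 252 and 134 CPM in cycling mesenchymal-like cells and at 379, 413, 463, 526 and 416 CPM in the others, with no overlap. In microglia-like cells both were low, and lower in 5 of 6 libraries (Cdkn2a 29.7 against 57.0 CPM, Cdkn2b 17.5 against 33.1 CPM). Cdkn2d (p19) was higher instead, at 123 against 23.6 CPM in microglia-like and 130 against 35.9 CPM in mesenchymal-like cells, higher in every library of both. Cdkn2c (p18) was higher in 6 of 6 and 4 of 5 libraries. Of the Cip/Kip members, Cdkn1b (p27) was at 14.8 against 26.2 CPM and 63.0 against 71.7 CPM, and Cdkn1c (p57) had no UMI in cycling microglia-like cells and was at 30.4 against 15.8 CPM in mesenchymal-like cells. The mesenchymal-like values held within the largest mesenchymal-like cluster alone (52 of the 55 cycling cells), where Cdkn1a was at 804 against 1747 CPM and Cdkn2b at 161 against 452 CPM.

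**Figure D4:**
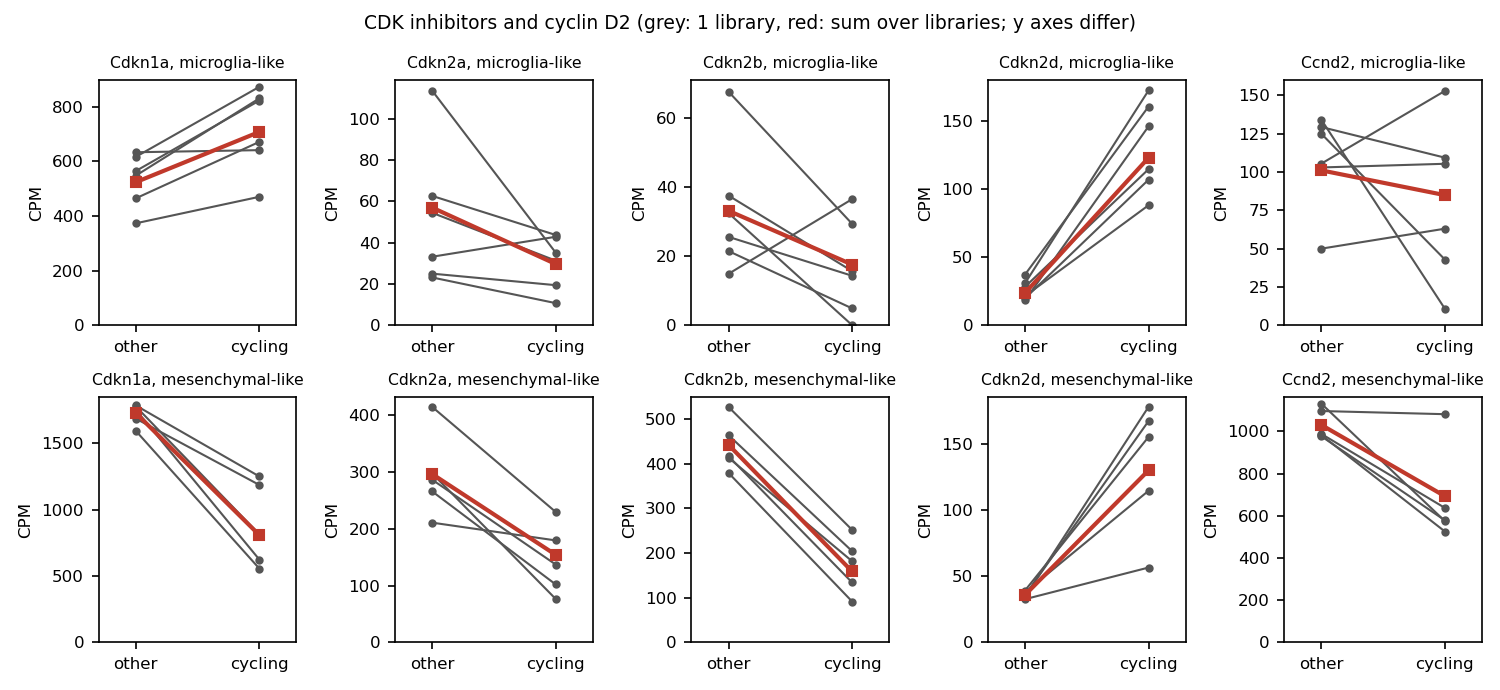
CPM (y axes from 0, differing between panels) of 4 CDK inhibitor genes and of cyclin D2 in other and cycling cells of 2 classes. Grey lines join the 2 values of 1 library, and red lines the summed counts; Cdkn1a goes from 524 to 708 CPM in microglia-like cells and from 1728 to 808 CPM in mesenchymal-like cells.

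Of the 12 measured arrest and quiescence genes, 2 were at least 2-fold lower in mesenchymal-like cells (list median -0.66): Btg2, an antiproliferative p53 target (387 against 828 CPM, lower in 5 of 5 libraries), and Trp53inp1 (84.8 against 195 CPM, also 5 of 5). Mdm2, the p53 ubiquitin ligase, was at 152 against 291 CPM there. In microglia-like cells 1 of 10 was at least 2-fold lower, Gadd45a, a stress-induced growth arrest gene, at 22.9 against 74.5 CPM (median of the list -0.15). By library Gadd45a was at 21.9, 24.2, 15.6, 14.3, 10.7 and 35.2 CPM in cycling microglia-like cells and at 90.7, 49.97, 106, 76.6, 50.9 and 72.8 CPM in the others. Every cycling value lay below every other value, on 17 UMIs in all.

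Genes of microglial identity differed little. In microglia-like cells 0 of 11 measured microglia markers differed 2-fold either way (median -0.08). Csf1r was at 226, 208, 234, 157, 267 and 182 CPM in cycling and 196, 232, 163, 194, 217 and 234 CPM in other cells, with overlapping ranges. Tyrobp, the adaptor of myeloid receptors, was lower in 6 of 6 libraries (3680 against 5503 CPM). In mesenchymal-like cells, collagens Col1a1 and Col1a2 were at 1345 against 946 CPM and 1608 against 1094 CPM, Dcn (decorin) at 100 against 174 CPM, and the contractile gene Acta2 at 4648 against 2312 CPM. Under median-of-ratios scaling Col1a1 was higher in 3 of 5 libraries in place of 5, and Acta2 in 4 in place of 5. Müller genes were low in mesenchymal-like cells. On summed counts, 6 of 12 were at least 2-fold lower in the cycling ones, among them Apoe (102 against 372 CPM) and Sox9 (43.5 against 119 CPM). Gfap had no UMI in cycling mesenchymal-like cells (at least 3.92-fold lower, at a floor of 3 UMIs over the group). Per cell, the Müller list as a whole differed little. Its median share of a cell's UMIs was 0.369% in cycling and 0.390% in other mesenchymal-like cells. Within the largest mesenchymal-like cluster Apoe was at 64.5 against 109 CPM; the part of free RNA or doublets in this was not tested.

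Outside the lists, the genes most evenly higher in cycling microglia-like cells were Prr11, Neil3, Hist1h1e, Cenpp, Ska2, Cenpq, Rad51ap1, Spdl1, Ncapd3 and Lsm2. Hist1h1e, a linker histone, was at 565 against 76.8 CPM. Neil3, a DNA glycosylase, was at 51.2 against 0.760 CPM, and Prr11 had no UMI in other cells (at least 29.6-fold higher). The genes most evenly lower were Atp6v0d2, Xylt1, Fam214b, Cxcl12, Serpine2, Chchd10, Hist1h2bc, Gabarapl1, Sqstm1 and Srxn1. Atp6v0d2, a subunit of the vacuolar proton pump, was at 10.8 against 133 CPM. Gabarapl1, an autophagy gene like Sqstm1, was at 21.6 against 70.7 CPM. Hist1h2bc was at 137 against 401 CPM, opposite to the linker histones. Xylt1 had no UMI in cycling cells (at least 5.92-fold lower).

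In mesenchymal-like cells the corresponding higher genes were Slfn9, Atad2, Gas2l3, Fam111a, Plk4, Mxd3, Cenpu, Diaph3, Lockd and Cenpp. Slfn9, of the schlafen family, was at 122 against 0.603 CPM. Plk4, the kinase of centriole duplication, was at 130 against 8.08 CPM. Mxd3, a Max partner, was at 89.1 against 0.193 CPM. The lower ones included Klhdc8b, Kdm7a, Klhl24, Azin2, Cyb561d2, Myo1d, Perp and Kat6b. Klhdc8b and Kdm7a had no UMI in cycling cells (at least 3.55-fold and 3.14-fold lower). Perp, a p53 target, was at 15.2 against 70.9 CPM and Kat6b at 28.3 against 63.1 CPM. The lower genes of both classes rest on few UMIs, 0 to 102 in cycling cells.

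Cycling Müller-like and AI593442-led cells could be compared with their class in 1 library, miR-25, with 13 cells and 67160 UMIs. Mitotic genes were high there, with the limits given above for the other classes. Cenpf, at 3127 against 1.61 CPM, is a marker, so the rule fixed its higher value. Ccnb1 (417 against 0.0850 CPM) and Cdc20 (491 against 1.11 CPM) were almost absent from other cells. For such genes the level filter fixed a higher value, so the values of these mitotic genes describe the chosen cells and test nothing. Of the Müller list, 7 of 17 measured genes were at least 2-fold lower and none was 2-fold higher (median -0.71). Of all 7427 genes measured there, 1088 (14.6%) were 2-fold lower and 1536 (20.7%) higher, with a median of 0.17. Apoe was at 2472 against 6454 CPM (0.383, 0.327 to 0.446), Dkk3 (a Wnt modulator) at 372 against 840 CPM (0.443, 0.287 to 0.655), Crym (crystallin mu) at 506 against 1163 CPM (0.435, 0.301 to 0.609) and Gpr37 at 89.3 against 424 CPM (0.211, 0.0774 to 0.459). Rlbp1 was at 29.8 against 108 CPM on 2 UMIs.

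For other Müller genes the counting interval of the ratio included 1. Glul (glutamine synthetase) was at 119 against 120 CPM, Sox2 at 164 against 143 CPM, Slc1a3 (a glutamate transporter) at 417 against 507 CPM and Sox9 at 119 against 193 CPM. The G1 kinase Cdk6 was at 596 against 111 CPM (5.37-fold, 3.82 to 7.35), while Ccnd2 was at 491 against 1143 CPM (0.430, 0.296 to 0.604) and Ccnd1 at 1027 against 1101 CPM. Cdkn1a was at 1132 against 869 CPM (1.303-fold, 1.03 to 1.63), and the p53 targets Mdm2 and Ccng1 were at 432 against 180 CPM and 759 against 388 CPM. Gadd45g, a neurogenic and stress gene, was at 44.7 against 403 CPM on 3 UMIs.

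**Figure D5:**
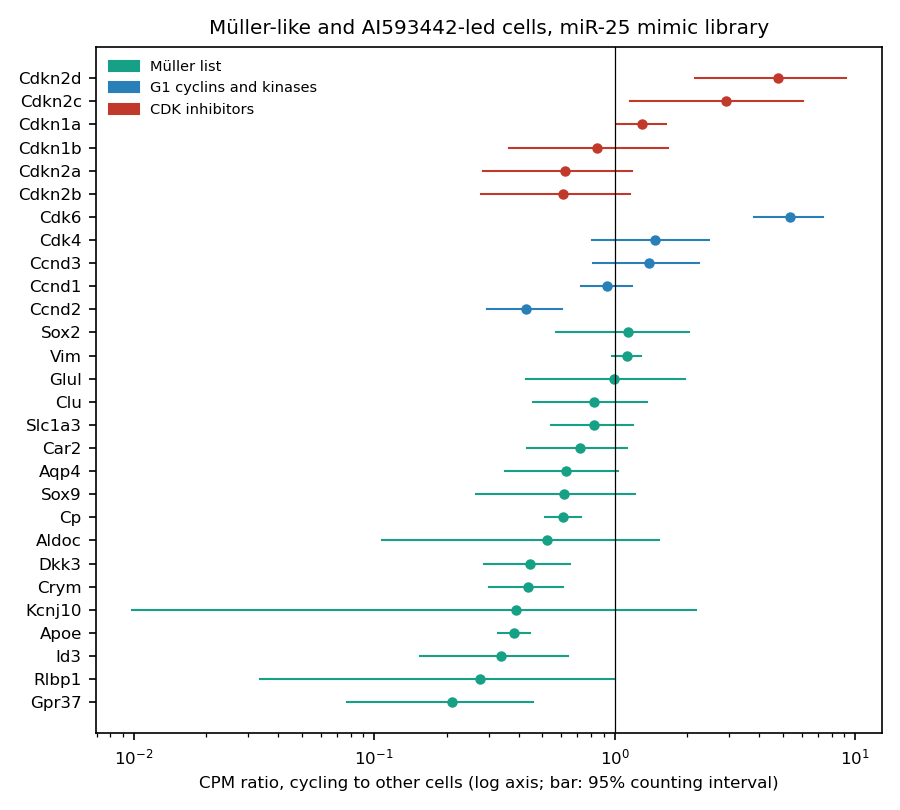
Ratio of CPM in cycling to other Müller-like and AI593442-led cells of the miR-25 library (x axis, log scale) for genes of 3 lists; bars are exact 95% counting intervals over 13 cycling cells. Gpr37, Id3, Apoe, Crym and Dkk3 lie under 1 with their whole interval, and Cdk6, Cdkn2c and Cdkn2d above it.

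Growth genes named for their link to let-7 varied in level. Over all classes Ccnd1 was at 273 CPM in cycling and 443 CPM in other cells, while 4 others were low in both. Lin28b had 0 UMIs, Myc was at 2.75 CPM, Igf2bp1 at 4.13 CPM and Hmga2 at 13.8 CPM, against 0.0182, 2.53, 7.72 and 14.8 CPM in other cells. The antiproliferative genes Tob1 and Btg2 were lower: Tob1 was at 9.64 against 41.5 CPM and Btg2 at 243 against 767 CPM. Egfr, the receptor of the EGF in the medium, was at 34.8 against 47.9 CPM in mesenchymal-like cells and had 1 UMI in cycling microglia-like cells (1.35 against 5.32 CPM). Hes1 was at 24.1 against 36.3 CPM and Hes6 at 25.5 against 65.3 CPM over all classes. Gfap was at 37.9 against 268 CPM over all classes. These pooled values follow the class make-up of the cycling cells.

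The lists of microRNA targets held few differences within a class. Of the let-7 targets, 0 of 8 measured in microglia-like and 0 of 10 in mesenchymal-like cells differed 2-fold. Of the miR-25 targets none of 7 did in microglia-like cells, while 2 of 8 were lower in mesenchymal-like cells, Btg2 and Dkk3. Of the miR-124 targets, 2 of 8 were higher in microglia-like cells, Cdk4 and the histone methyltransferase Ezh2 (75.5 against 20.9 CPM); in mesenchymal-like cells Ezh2 was higher (139 against 18.5 CPM) and Sox9 lower, of 11. Among genes of the EGF receptor and MAPK output, 0 of 3 and 0 of 7 differed 2-fold. Of 9 measured immediate early genes in each class none differed 2-fold on the summed scale, with list medians of 0.11 in microglia-like and -0.45 in mesenchymal-like cells. By library, however, Fos (454 against 663 CPM), Jun, Junb, Ier2 (204 against 319 CPM) and Ier3 were lower in 5 of 5 mesenchymal-like libraries, and Jund in 6 of 6 microglia-like libraries (9.44 against 22.4 CPM). Of the markers of other cell types, Mitf, a factor of pigment cells that microglia also express, was lower in 6 of 6 microglia-like libraries (12.1 against 30.4 CPM). In mesenchymal-like cells Pdgfra was 2-fold higher (28.3 against 10.1 CPM, 5 of 5 libraries), as was Cnn1 of the pericyte list (58.7 against 14.1 CPM), while Notch3 was lower on 1 UMI. No gene of the Schwann and oligodendrocyte or red blood cell lists reached the level filter in either class.

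No class had 30 cycling cells in any library, so genes were not compared between treatments within cycling cells. Ccnd1, a let-7 target that the rule did not use, is given for cycling microglia-like cells as values of single libraries. It was at 255 CPM in control (178 to 355), 145 under let-7 antagomiR alone (98.1 to 208), 46.9 under miR-25 alone (9.67 to 137), 99.98 in the labelled miR-124 library (40.2 to 206), 214 in the double transfection (130.5 to 330) and 111 in the labelled triple transfection (67.0 to 174). Control was the highest of the 6, and its counting interval did not overlap those of miR-25 alone, on 3 UMIs, and of the labelled triple transfection. Such gaps were not particular to Ccnd1. Cdkn1a had intervals of 685 to 998 CPM in control and 381 to 574 CPM under let-7 antagomiR alone. Ccnd2 had 94.7 to 234 CPM in control and 0.270 to 59.5 CPM in the double transfection, on 1 UMI. For Cdk4 every library overlapped control. In the other microglia-like cells Ccnd1 was at 209, 168, 194, 138, 213 and 140 CPM in the same order. There the labelled triple transfection also lay below control, while miR-25 alone was near it. With 1 library a treatment and 10 to 18 such cells in each, this has no replicate check.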

How the data were processed

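Raw UMI counts per gene and cell barcode were deposited by the authors for 6 libraries of 10x V2 chemistry, per the labels' protocols. The submitters' processing notes name Cell Ranger 2, Seurat 2 and the mm10 build. The members and gene lists were chosen with earlier results of these data known. Kept cells were normalized and clustered with scanpy 1.11.5 (2000 variable genes, 30 principal components, 15 neighbours, Leiden resolution 0.6), without the cycle lists and the 200 genes most correlated with the number of markers, some of them microglia genes. Classes were named from fixed marker lists, and doublets were kept. Counts were summed per class and library. The planned minimum of 20 cycling cells per class and library was reached by none, so 5 was used, chosen after seeing the data. The planned comparison of treatments gene by gene was not run. Named genes were the markers, up to 4 genes of each cycle list by median ratio, list members lower in every library, the 10 highest and 10 lowest outside the lists, and a fixed group; a few of these are not reported here. Intervals are exact at 95% (Clopper-Pearson, Poisson or conditional binomial; SciPy 1.17.1). Calling was tested on simulated data.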

Additional observations from a re-analysis of the deposited data

Results flagged for a closer look

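Of 238 list and ranked genes measured in both classes, Cdkn1a alone was higher in cycling cells in every microglia-like library (6 of 6, median log2 ratio 0.51) and lower in every mesenchymal-like library (5 of 5, median -1.12). This was not counted over all 4862 genes measured in both classes. In microglia-like cells Cdkn1a was at 641 against 633 CPM with miR-25, and with median-of-ratios scaling it was higher in 5 of 6 libraries. The difference between the classes was not tested.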

How the results depend on the processing

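Of 134 values under the alternatives, 111 stayed within the spread or within 1.5 times of the reported value and 23 moved. With cycle genes kept in the clustering, 1.64% of cycling cells were mesenchymal-like, 1.09% Müller-like and 0.0% pericyte-like, as 86 of the 183 then lay in an unnamed cluster led by cycle genes and 90 in the microglia-like cluster. At resolutions 0.3 and 1.0 Müller-like cells held 14.2%. Thinned to 2000 UMIs, 10.1% of microglia-like and 0.375% of mesenchymal-like cells cycled. Leaving out 1 library, the Müller-like share ranged from 0.0656% (without miR-25) to 0.175%. Genes lower in every library numbered 31 to 45 in microglia-like and 164 to 206 in mesenchymal-like cells when 1 library was left out, 73 and 326 without the libraries labelled miR-124 and triple, and 43 and 387 with no level filter. Median-of-ratios scaling gave 207 in mesenchymal-like cells. Leaving out libraries makes "every library" easier to meet; for the other settings the cause was not tested. Alternatives planned for treatment against control were not run, since no class reached 30 cycling cells. No paired analysis was possible because each treatment had 1 library, so that no replicate number pairs treatments; classes were compared within libraries instead. Depth limits single genes in cycling cells, where the floor of 3 UMIs was 4.04 CPM over all cycling microglia-like cells.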

Other observations

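Csf1, the ligand of Csf1r that supports microglia, was chosen here after its values were seen. Over all kept cells it was at 234 CPM in pericyte-like, 62.2 CPM in astrocyte-like and 59.3 CPM in AI593442-led cells. Mesenchymal-like cells had 52.6 CPM, Müller-like cells 45.1 CPM, microglia-like cells 29.4 CPM and neuron- or progenitor-like cells 26.0 CPM. Csf1r was at 210 CPM in microglia-like cells and at most 0.738 CPM in any other class. Il34, its other ligand, was at 4.33 CPM or less in every class. Egfr was at 47.7 CPM in mesenchymal-like, 41.3 CPM in pericyte-like, 22.1 CPM in Müller-like and 4.45 CPM in microglia-like cells. Other growth factor genes were measured by class and are not reported here. Whether any of these ligands or receptors bears on cycling was not tested.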
